A study of Mus musculus with 11 samples.

Results

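The genes described are 10 markers of liver macrophages, of which 6 mark Kupffer cells (Clec4f, Vsig4, Cd5l, Timd4, Marco and Cd163) and 4 mark macrophages in general (Adgre1, Csf1r, Cd68 and Mpeg1). They were found on the array through the RefSeq accession each probe was designed on, which gave 13 probes of 9 genes among 20144 named genes. No probe matched a transcript listed for Cd68 in the gene annotation used here, and Cd68 is not analysed. Whether another probe of the array measures Cd68 was not settled. All 9 genes passed the filter on dim probes, as did 15974 genes in all. Liver RNA came from mice of db/db genotype, which lack a working leptin receptor and become obese and diabetic, and both groups carry it. The 5 PBS samples (replicates 1, 3, 4, 5 and 6) came from mice given phosphate-buffered saline (the design text calls the comparison group untreated), and the 6 anti-GCGR samples (replicates 1 to 6) from mice given 5 mg/kg of the antibody 3c7.v44 against the glucagon receptor. The age and sex of the mice, the time of treatment and whether each sample was 1 mouse are not given in the sources used here, so a p-value here measures no more than how these samples spread, which may be technical. Each array compared liver RNA in the dye Cy5 with a pooled mouse reference RNA in Cy3, and each value below is log2 of liver over reference unless another scale is named.

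Kupffer cells are the macrophages that reside in the liver sinusoids, where they clear bacteria, dying cells, aged red cells and haemoglobin from portal blood. Their identity is kept by the macrophage factor PU.1 together with Notch signals acting through RBPJ and with the oxysterol receptor LXR, and their survival depends on signals through the receptor Csf1r. Hepatocytes carry the glucagon receptor, and hepatocyte RNA makes up most of a whole-liver sample. In such bulk RNA, fewer macrophages and less transcript per macrophage cannot be told apart.

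The stretch before the start site is shown for the 3 genes whose 6 anti-GCGR arrays all lay above the PBS mean (Clec4f, Vsig4 and Cd5l), and for Marco, which varied most between arrays among the 9 measured markers. Each line gives the 250 bases before the start on the strand of the gene, 5′ to 3′, from RefSeq in build GRCm38.p6. Capitals mark the letters GAGGAA (core of the PU.1 motif) and TGGGAA (core of the RBPJ motif) or their reverse complements.
Clec4f (chr6:83656117-83656366, minus strand): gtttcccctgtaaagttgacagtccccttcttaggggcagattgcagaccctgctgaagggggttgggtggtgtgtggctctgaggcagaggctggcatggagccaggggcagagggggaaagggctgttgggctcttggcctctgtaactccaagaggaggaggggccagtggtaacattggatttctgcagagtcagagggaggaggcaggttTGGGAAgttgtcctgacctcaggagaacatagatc
Vsig4 (chrX:96293439-96293688, minus strand): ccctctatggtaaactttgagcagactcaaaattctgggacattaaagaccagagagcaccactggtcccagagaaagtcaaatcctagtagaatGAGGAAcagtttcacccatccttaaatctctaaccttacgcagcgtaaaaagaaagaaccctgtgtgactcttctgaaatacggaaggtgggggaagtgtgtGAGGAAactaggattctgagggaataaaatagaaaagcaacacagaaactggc
Cd5l (chr3:87357631-87357880, plus strand): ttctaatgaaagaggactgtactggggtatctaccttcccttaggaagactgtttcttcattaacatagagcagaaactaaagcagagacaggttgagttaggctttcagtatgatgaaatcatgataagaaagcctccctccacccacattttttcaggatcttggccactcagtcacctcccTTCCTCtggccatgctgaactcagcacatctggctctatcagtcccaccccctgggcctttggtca
Marco (chr1:120505025-120505274, minus strand): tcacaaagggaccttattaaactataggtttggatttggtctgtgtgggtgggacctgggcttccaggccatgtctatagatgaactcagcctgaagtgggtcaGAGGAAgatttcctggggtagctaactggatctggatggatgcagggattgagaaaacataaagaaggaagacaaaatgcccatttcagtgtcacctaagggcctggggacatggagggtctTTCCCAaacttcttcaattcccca
Promoters of 8 of the 10 genes were in the table, Cd68 among them, and those of Adgre1 and Csf1r were not matched. GAGGAA was found on either strand in 4 of the 8 (Vsig4, Cd5l, Marco and Cd68) and in 23.3% of the 32851 promoter windows of the same length. TGGGAA was found in 3 of the 8 (Clec4f, Marco and Cd68) and in 21.6% of all windows. TATAAA was found in 0 of the 8 and in 12.4% of all windows. No match of these motifs overlapped another in the 8 windows. These matches describe letters in a window and say nothing of binding.

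The arrays had a median Cy5 signal of 85 to 110 in unlogged scanner units, against a local background of 26 to 27, and 66.2% to 77.1% of gene spots were well above background. All 14 measured genes of a hepatocyte list lay above the reference in PBS livers, as the tissue label says. All 9 macrophage markers were also above the reference in the mean of the PBS arrays, as were 8769 of all 15974 genes. The lowest of these marker means were 0.19 for Adgre1 (SD 0.26) and 0.35 for Cd163. For Cd163 the reference was not well above background on any array. The arrays sat on 3 slides, each of which held both groups. The slides were told apart by the barcode in the name of each array's scan, as the sample labels name no slide. Slide 2 held 1 PBS array (replicate 5), so differences within slide 2 rest on that array for PBS.

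One of the 9 measured markers, the Kupffer cell lectin Clec4f, was called higher with the antibody, and none was called lower. A call means a two-sided limma p, adjusted by Benjamini-Hochberg over all 15974 genes, under 0.05. The number of arrays limits the precision. Across all genes 8.96% were called higher and 5.66% lower, so 1 of 9 is near the background. At an unadjusted p under 0.05 the limma fit had 3 markers higher (Clec4f, Vsig4 and Cd5l) and 1 lower (Mpeg1), and at that threshold 17.6% of all genes were higher and 12.8% lower. The log2 fold change was above 0 in 8 of the 9 markers, where 53.7% of all genes were above 0. Its median over the 9 markers was 0.14 and over all genes 0.013. With median centring these medians were 0.051 and -0.058, with 7 of the 9 markers above 0. The 9 markers share arrays and were not drawn at random, and no test was made of that median.

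**Figure D1:**
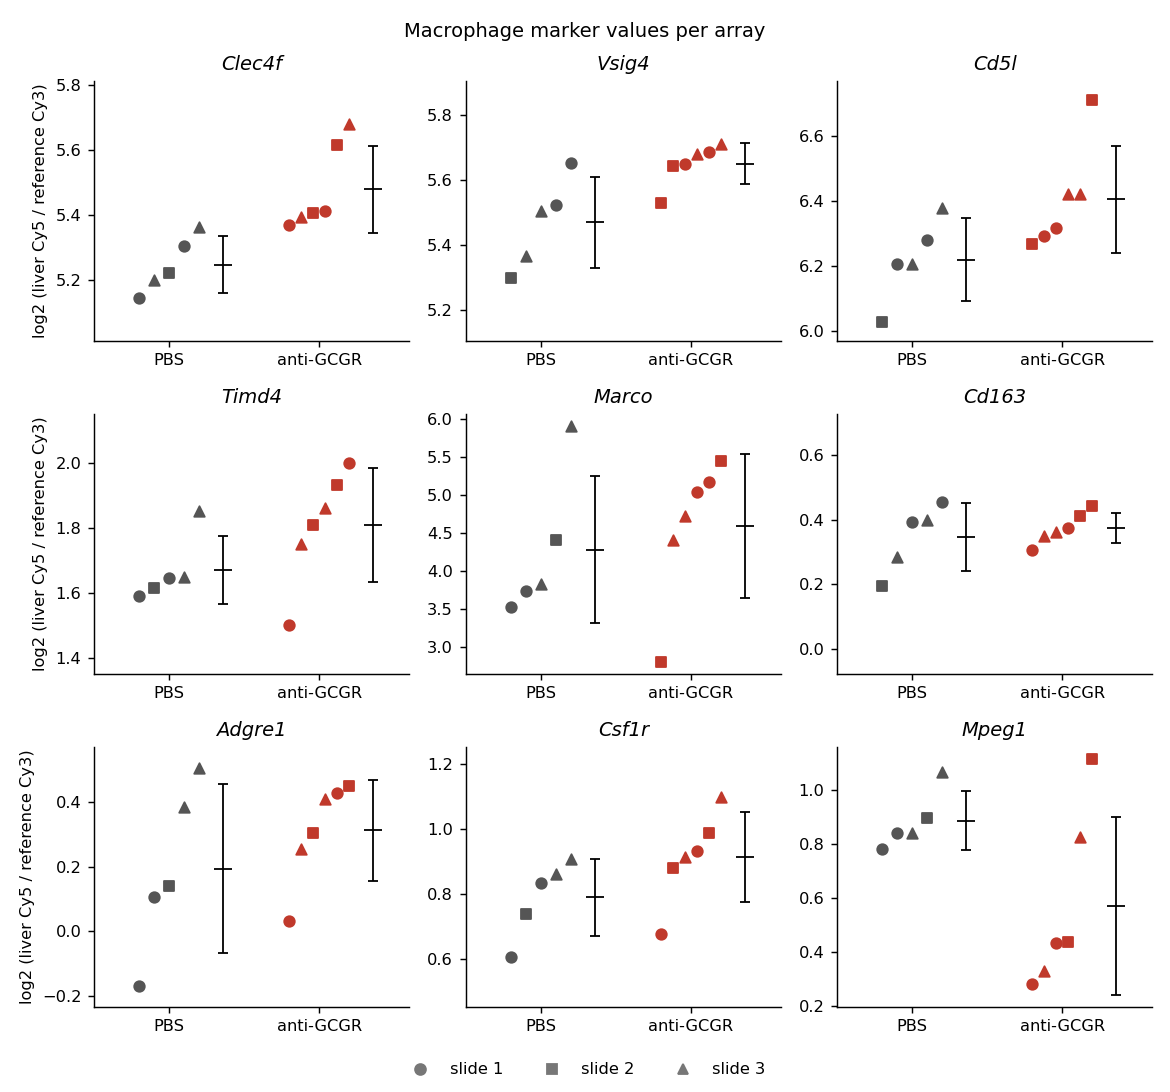
Values of the 9 measured markers on each array, as log2 of liver over reference; grey points are the 5 PBS arrays, red points the 6 anti-GCGR arrays, the point shape gives the slide, and the bars give mean ± SD. In Clec4f all red points lie above all grey points, in Mpeg1 red points split into a low set of 4 and a high set of 2, and Marco spans the widest range (from 2.81 to 5.91); each panel has its own scale.

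Clec4f, a lectin found on Kupffer cells, was at 5.14, 5.20, 5.31, 5.22 and 5.36 on PBS replicates 1, 3, 4, 5 and 6. On the anti-GCGR arrays its lowest value was 5.37, its median 5.41 and its highest 5.68. The groups did not overlap, though the highest PBS array (5.363) and the lowest anti-GCGR array (5.369) nearly met, and replicates 2 and 3 stood above the other antibody arrays. Clec4f was the 1 marker of 9 with groups fully apart, and no marker had the antibody group fully below. Over all genes 3.95% had the antibody group fully above, 2.69% fully below and 6.64% either. Clec4f had a mean of 5.25 ± 0.09 with PBS (SD, n = 5) and of 5.48 ± 0.13 with antibody (SD, n = 6). This is 0.23 ± 0.07 higher on the log2 scale (SE, 1.17-fold), with an adjusted p of 0.0409 in limma. It was 0.165, 0.291 and 0.255 within slides 1, 2 and 3. The call was near the threshold and was lost in 7 of the 11 fits that left out 1 array. These were the fits without PBS replicate 1 (limma adjusted p = 0.102), 3 (0.0906), 4 (0.0612) or 5 (0.0725) and without anti-GCGR replicate 1 (0.0546), 2 (0.0785) or 3 (0.0754), with log2 fold changes of 0.19 to 0.25. It was also lost with median centring in place of loess (0.11), with the scanner software's own ratio (0.085) and with the Cy5 channel alone (0.19).

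Vsig4, the complement receptor by which Kupffer cells take up opsonised bacteria, was at 5.52, 5.37, 5.65, 5.30 and 5.50 on PBS replicates 1, 3, 4, 5 and 6. The anti-GCGR arrays lay between 5.53 and 5.71 with a median of 5.66. All 6 were above the PBS mean and 3 were above the highest PBS array, replicate 4. Vsig4 differed by 0.18 ± 0.07 in log2 units (± SE; by limma, adjusted p = 0.0788). It passed with slide as a fixed block (0.20, limma adjusted p = 0.0348), without PBS replicate 4 (0.23, 0.0405) and without anti-GCGR replicate 5 (0.20, 0.0383). In the Cy5 channel alone the difference was 0.056, and with median centring it was 0.051.

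Cd5l encodes a secreted scavenger receptor-like protein that Kupffer cells release into plasma. It was at 6.28, 6.21, 6.21, 6.03 and 6.38 on PBS replicates 1, 3, 4, 5 and 6, and at 6.27 to 6.71 (median 6.37) on the anti-GCGR arrays. The groups overlapped, with anti-GCGR replicate 2 highest and PBS replicate 5 lowest. Cd5l differed by 0.19 ± 0.08 in log2 units (± SE; by limma, adjusted p = 0.155), and this fell to 0.070 under median centring and to 0.012 under the scanner software's ratio.

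Timd4, the phosphatidylserine receptor that marks long-settled Kupffer cells, was at 1.59, 1.65, 1.65, 1.61 and 1.85 on PBS replicates 1, 3, 4, 5 and 6. With antibody it ranged from 1.501 to 2.002 with a median of 1.837, so that the antibody group held both the lowest and the highest array. Between the group means lay 0.14 ± 0.08 in log2 units (± SE; by limma, adjusted p = 0.288). The reference was not well above background on any array for Timd4 (Cy3 of 37.5 to 47 units), so its ratio rests on a reference signal near the floor. In Cy5 alone the groups differed by 0.00059.

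Marco, a scavenger receptor for bacteria and particles, varied more between arrays of one group than nearly any other gene. On PBS replicates 1, 3, 4, 5 and 6 it was at 3.74, 3.83, 3.53, 4.41 and 5.91, and the anti-GCGR arrays had a lowest value of 2.81, a median of 4.88 and a highest of 5.44. The highest array of all was PBS replicate 6 and the lowest was anti-GCGR replicate 5, with 8.59-fold between them. Its SD within groups was 0.96, against a median of 0.12 over all genes, and 13 of the 15974 genes had a larger one. The log2 fold change was 0.31 ± 0.49 (SE; by limma, adjusted p = 0.717), with a 95% interval of -0.73 to 1.36. Without PBS replicate 6 it was 0.72 (limma adjusted p = 0.286) and without anti-GCGR replicate 5 it was 0.67 (0.229). It was smaller without PBS replicate 1 (0.18), 3 (0.20) or 4 (0.13) and without anti-GCGR replicate 1 (0.20) or 2 (0.15), and with median centring (0.21) or the scanner software's ratio (0.16). Within slides 1, 2 and 3 the difference was 1.47, -0.28 and -0.30, so its sign differed between slides.

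Cd163, the receptor for haptoglobin-bound haemoglobin, was close to the floor of the measurement. Its Cy5 signal was 46 to 57 units against a local background of 23.5 to 31, and the reference was not well above background on any array. The ratio was 0.20 to 0.46 on the PBS arrays and 0.31 to 0.44 on the anti-GCGR arrays, which lay inside the PBS range. With a log2 fold change of 0.03 ± 0.05 (SE; by limma, adjusted p = 0.778) its sign turned without PBS replicate 5 (-0.0094). The 95% interval ran from -0.09 to 0.15, and a lower level would have been hard to tell from the background.

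Adgre1 and Csf1r, the general macrophage surface markers, showed no call on any of their 5 probes. Adgre1, an adhesion receptor used to identify mouse macrophages, was at -0.17, 0.38, 0.10, 0.14 and 0.50 on PBS replicates 1, 3, 4, 5 and 6 and at 0.03 to 0.45 (median 0.35) on the anti-GCGR arrays. All antibody values lay within the PBS range, and PBS replicate 1 was the lowest array. The log2 fold change was 0.12 ± 0.11 (SE; by limma, adjusted p = 0.528), 0.029 without PBS replicate 1 and -0.0020 with median centring, and its dimmer probe gave 0.079 ± 0.09. Csf1r, the receptor for the growth factors Csf1 and Il34, was at 0.60, 0.86, 0.83, 0.74 and 0.91 on the PBS arrays in the same order. Its anti-GCGR values were 0.677 to 1.098 with a median of 0.92, and 4 of the 6 were above the highest PBS array. The log2 fold change of Csf1r was 0.13 ± 0.08 (SE; by limma, adjusted p = 0.295), and its other probes gave 0.10 and 0.075. With median centring Csf1r differed by 0.021.

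Mpeg1, a pore-forming protein that macrophages use against engulfed bacteria, was the marker on the other side of 0. It was at 0.84, 0.84, 0.78, 0.90 and 1.07 on PBS replicates 1, 3, 4, 5 and 6. On anti-GCGR replicates 1 to 6 it was at 0.28, 0.44, 0.33, 0.43, 1.11 and 0.83. Replicates 1 to 4 were below every PBS array, replicate 5 was above all of them and replicate 6 lay among them. Mpeg1 had a mean of 0.89 ± 0.11 with PBS (SD, n = 5) and of 0.57 ± 0.33 with antibody (SD, n = 6). The difference was -0.31 ± 0.13 in log2 units (± SE; by limma, adjusted p = 0.133). Without anti-GCGR replicate 5 it was -0.42 (limma adjusted p = 0.00687), and with median centring it was -0.45 (0.0378). Within slides 1, 2 and 3 it was -0.45, -0.12 and -0.38. The second probe of Mpeg1, at 49 to 77 Cy5 units, gave -0.04 ± 0.07, so that the difference rests on the bright probe.

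**Figure D2:**
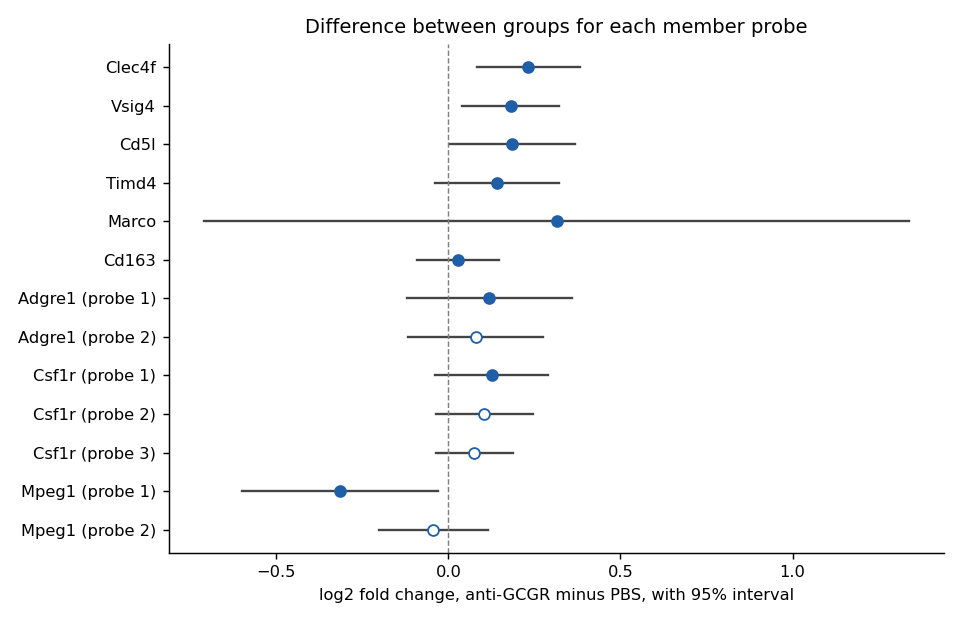
Log2 fold change (anti-GCGR minus PBS) with its 95% interval for each of the 13 marker probes, from the fit over 28592 probes; filled points are the probe that stands for its gene and open points the other probes. The intervals of Clec4f, Vsig4, Cd5l and the bright Mpeg1 probe lie off 0 before adjustment, and the Marco interval is the widest.

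The reference channel carries the same RNA on every array, and its group difference for these genes lay between -0.074 and 0.125 on the log2 scale. For Clec4f the liver channel (Cy5) differed by 0.188 and the reference (Cy3) by 0.062, for Cd5l by 0.206 and 0.125, and for Mpeg1 by -0.301 and 0.018. For Vsig4 they were 0.056 and -0.042, and for Timd4 0.001 and -0.074; for Timd4 the reference differed by more than the liver channel. Each channel was quantile-scaled on its own, without loess, so the channel differences do not add up to those of the ratios. The part of the reference in the ratios was not tested.

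Across the 11 arrays, after the group mean was taken off, the markers did not vary as one block. The correlation over the 36 pairs ran from -0.445 to 0.854 with a median of 0.191, and between the 6 Kupffer cell markers it ran from -0.445 to 0.573. The highest was that of Adgre1 with Csf1r (r = 0.854, Spearman rho = 0.764, n = 11 arrays, r = 0.806 without the 2 arrays farthest from the median of Adgre1). Timd4 came next with Adgre1 (r = 0.725, rho = 0.782, and 0.660 without 2 arrays). These are descriptions with no test, and the arrays share slides and the reference RNA.

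Over all 11 arrays, the genes with the pattern most like Clec4f were Rbm14 (r = 0.948), Gdf2 (0.939), S100a16 (0.938), Dnajc19 (0.937) and Arv1 (0.934). For Csf1r they were Cd300ld (0.918), Vmn1r31 (0.873), Trmt2a (0.870), Cfp (0.863) and Adgre1 (0.860). For Mpeg1 they were Zc3h15 (0.945), St3gal1 (0.944), Xab2 (0.920), Igfbp5 (0.913) and Casc3 (0.913). These are the highest of the correlations with every other kept gene, taken as a description over 11 arrays that share 3 slides. The group difference was left in. The genes named for Clec4f were all called higher (limma adjusted p of 0.0175 to 0.0439), and of the others Cfp alone was called. With the group means taken off, r was 0.847 to 0.880 for the genes named for Clec4f. It was 0.848 to 0.895 for those of Csf1r and 0.873 to 0.926 for those of Mpeg1.

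**Figure D3:**
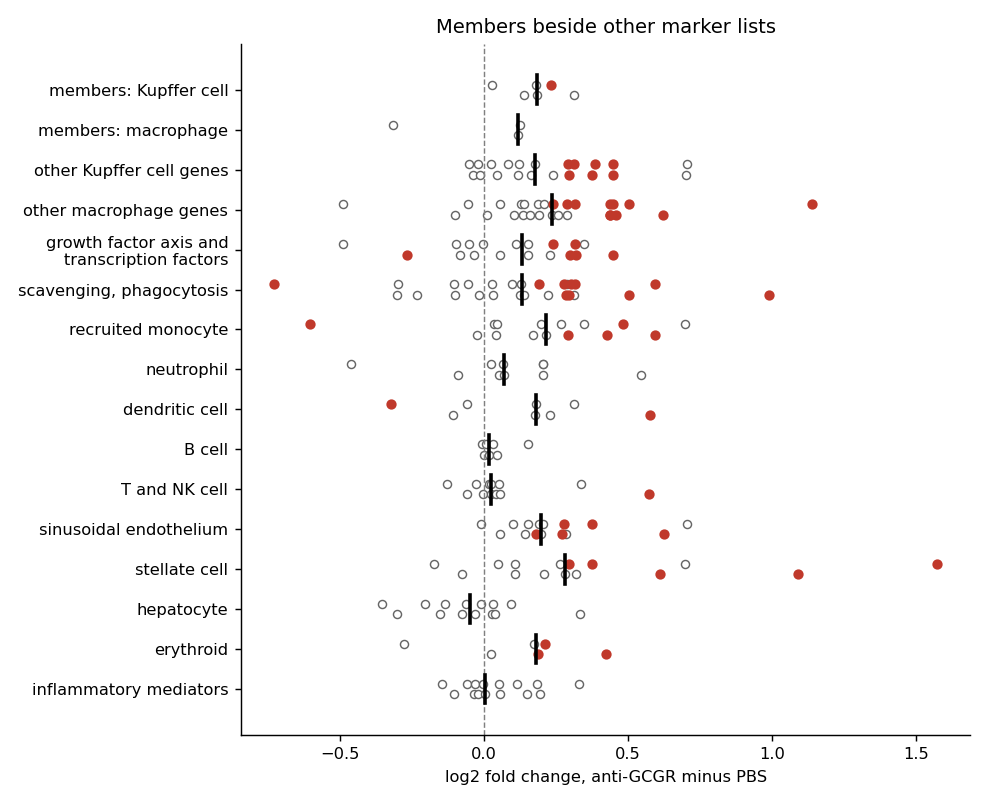
Log2 fold change (anti-GCGR minus PBS) of each measured gene in the marker lists, with lines for the list medians; red points passed the test and open points did not. The 2 lists of marker genes described here have medians of 0.18 and 0.12, beside 0.24 for other macrophage genes and -0.05 for hepatocyte genes.

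Other genes of the macrophage lineage are given by list, against the all-gene shares of 8.96% called higher and 5.66% lower, and no test was made between lists. Those shares hold for the fit as reported, and the alternatives have their own. Over the 15974 genes 580 rose and 2144 fell with median centring, against 1431 and 904 as reported. Without anti-GCGR replicate 5 these numbers were 2293 and 1574. The lists overlap, so 1 gene can count in several: of their genes, 5 of the other Kupffer cell list, 10 of the other macrophage list, 7 of the growth factor list and 10 of the scavenging list stand in another list too. Of 21 other Kupffer cell genes 7 rose and 0 fell, and the remaining 14 were not called (median log2 fold change 0.18, limma, 0 lower also at an unadjusted p under 0.05). Folr2, the folate receptor of resident macrophages, rose by 0.45 ± 0.10 (SE) with no overlap between the groups, but was at -0.12 with the scanner software's ratio. Folr2 was the 1 gene of these 21 with groups fully apart, where 6.64% of all genes were. Id3, a regulator that Kupffer cells depend on, rose by 0.45 ± 0.14, a call that held in 3 of the 11 leave-one-out fits. The count of 7 was 3 without PBS replicate 1 or anti-GCGR replicate 3, 9 without anti-GCGR replicate 5, and 4 without each of the other arrays. With median centring 1 of these genes rose, with the scanner software's ratio 2, and with Cy5 alone 4 rose and 1 fell.

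Of 27 other general macrophage genes 11 rose and 0 fell, and 16 were not called, with a median of 0.24 (limma, 1 lower at an unadjusted p under 0.05). Cx3cr1, the fractalkine receptor, had a mean of 1.69 ± 0.37 with PBS (SD, n = 5) and of 2.83 ± 0.49 with antibody (SD, n = 6). It rose by 1.14 ± 0.23 (SE, limma adjusted p = 0.00899) and passed under all 24 alternatives. Cd14, the lipopolysaccharide co-receptor, rose by 0.62 ± 0.15 and was not called with Cy5 alone or with PBS replicate 1 or 4 left out. The count was 6 without PBS replicate 1, and between 9 and 14 without each other array. It was 7 with median centring, 8 with the scanner software's ratio and 8 with Cy5 alone.

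In the list of macrophage growth factors, their receptors and the transcription factors that set macrophage identity, 5 of 18 rose, 1 fell and 12 did not pass (median 0.13). Il34, a ligand of Csf1r, rose by 0.32 ± 0.09, a call kept in 3 of the 11 leave-one-out fits, and Csf3r, the granulocyte growth factor receptor, fell by 0.26 (SE 0.07), kept in 5. The rises numbered 0 without PBS replicate 1, 1 without anti-GCGR replicate 1, 3, 4 or 6, 2 without PBS replicate 3 or 6, and 3 without PBS replicate 5 or anti-GCGR replicate 2. Csf3r lost its call with any of PBS replicates 1, 3, 4 and 5 left out, and with either of anti-GCGR replicates 1 and 4 left out, and 2 genes fell without anti-GCGR replicate 5. With median centring 0 rose and 2 fell, with the scanner software's ratio 1 rose and 1 fell, and with Cy5 alone 3 rose and 1 fell. Among 26 scavenging and phagocytosis genes, which include Timd4, Cd163 and Marco, 9 rose, 1 fell and 16 did not pass (median 0.13). At an unadjusted p under 0.05 (limma) 11 of the 26 were higher and 5 lower, where 17.6% and 12.8% of all genes were. Mfge8, a bridge between dying cells and phagocytes, rose by 0.99 ± 0.21, and the complement protein C3, made mainly by hepatocytes, fell by 0.73 (SE 0.17), with values from -0.86 to -0.19 over the alternatives. Leaving out 1 array gave 6 to 10 rises and 1 to 3 falls, the 3 falls without anti-GCGR replicate 5 and 2 without PBS replicate 5 or anti-GCGR replicate 2. With median centring, where falls also outnumbered rises over all genes (2144 and 580), there were 3 rises and 4 falls. Cy5 alone gave 7 and 2.

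Markers of recruited monocytes had 4 of 15 higher, 1 lower and 10 not passing (median 0.22), and the rises numbered 2 without PBS replicate 1 and 6 without PBS replicate 6 or anti-GCGR replicate 5, against 4 with all arrays. Ccr2, the receptor that brings monocytes into tissue, rose by 0.48 ± 0.09 (SE, limma adjusted p = 0.00635) with no overlap, and Itgax, an integrin of activated macrophages and dendritic cells, rose by 0.59 ± 0.14, lost without PBS replicate 1. Of these 15 genes 2 had the antibody group fully above and 1 fully below, against 3.95% and 2.69% of all genes. Over the alternatives Ccr2 ranged from 0.45 to 1.39 and Itgax from 0.50 to 1.19. No Ccr2 probe was well above background in Cy5 on every array. Its range therefore covers the 11 leave-one-out fits and 12 of the 13 other processing or model choices. Ms4a4c, a membrane protein, fell by 0.60 (SE 0.11), while the mean of all its kept probes gave -0.052. Inflammatory mediators had 0 of 15 called in either direction (limma, 1 higher and 0 lower at an unadjusted p under 0.05), and 1 lower with median centring or with Cy5 alone. With the replicate number as a block, or without anti-GCGR replicate 5, 1 was called higher. Tlr2 had the smallest p of that list, at 0.33 ± 0.13 (limma adjusted p = 0.113).

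Lists of other liver cells also held called genes. Sinusoidal endothelium had 5 of 15 higher and 0 lower (median 0.20), led among its called genes by Gpr182 (0.63 ± 0.16), and 4 of its genes are also in a macrophage list. Stellate cells had 5 of 15 higher and 0 lower (median 0.28), led by the collagens Col1a1 (1.57 ± 0.29) and Col3a1 (1.09 ± 0.19). Neither list had a gene lower at an unadjusted p under 0.05 in limma. The endothelial count was 1 with PBS replicate 3, PBS replicate 6 or anti-GCGR replicate 3 left out, 2 with PBS replicate 1, PBS replicate 5 or anti-GCGR replicate 2 left out, 3 with anti-GCGR replicate 6 left out and 4 to 7 otherwise. The stellate count was 2 with PBS replicate 1, anti-GCGR replicate 3 or anti-GCGR replicate 4 left out, 3 without PBS replicate 5 or 6, 10 without anti-GCGR replicate 5 and 4 to 7 otherwise. With median centring, the scanner software's ratio and Cy5 alone the endothelial count was 3, 1 and 2, and the stellate count 3, 3 and 4. Hepatocyte genes had 0 of 14 called (median -0.05, limma, 1 higher and 4 lower at an unadjusted p under 0.05). With median centring 2 hepatocyte genes were lower, with quantile scaling 1 was lower, and with Cy5 alone 2 were higher and 3 lower. Neutrophil genes (10 measured) and B cell genes (7 measured) had none called, and none at an unadjusted p under 0.05 (limma). Of 12 T and NK cell genes 1 was higher (Cd4, 0.57 ± 0.15). Cd4 lost its call with PBS replicate 1, PBS replicate 3 or anti-GCGR replicate 4 left out. It was also lost with the scanner software's ratio, Cy5 alone or the replicate number as a block. Of 8 dendritic cell genes 1 was higher (Clec10a, 0.58 ± 0.10, lost with the scanner software's ratio) and 1 lower (Siglech, -0.32 ± 0.08). Siglech lost its call with Cy5 alone, with the mean of all its kept probes and without PBS replicate 1, 3 or 5. In this list 2 were higher without PBS replicate 6 and 3 without anti-GCGR replicate 5. Of 6 erythroid genes 3 were higher (among them Slc4a1, 0.42 ± 0.09), and 1 with median centring. As the mean difference of a list from its PBS mean, the 9 markers ranged over the PBS arrays from -0.13 to 0.30 and over the antibody arrays from -0.05 to 0.27. Marco, which varied most between arrays, enters that mean. For the other macrophage list the ranges were -0.10 to 0.08 and 0.11 to 0.33, without overlap. Over all genes the ranges were narrower, at -0.016 to 0.01 and 0.016 to 0.039, and also did not overlap. For the other Kupffer cell list they were -0.088 to 0.077 and -0.003 to 0.31, with overlap. For the stellate list these ranges were -0.13 to 0.09 and 0.12 to 0.65, and for the hepatocyte list -0.13 to 0.09 and -0.15 to 0.04. The part of any of these lists in the values of the macrophage markers was not tested.

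**Figure D4:**
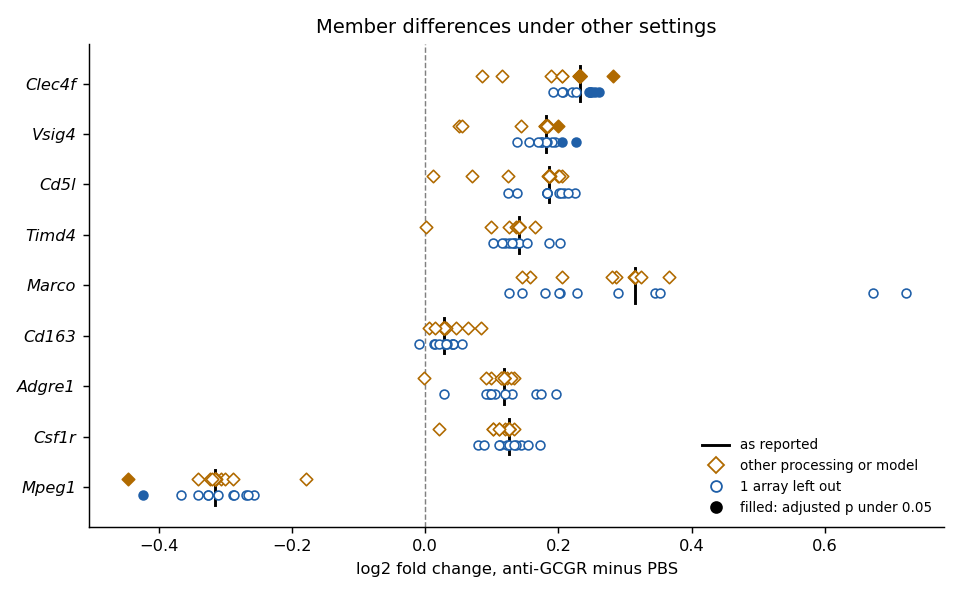
Log2 fold change (anti-GCGR minus PBS) of the 9 measured markers as reported (black line), under 13 other processing or model choices (diamonds) and with each of the 11 arrays left out (circles); filled symbols have an adjusted p under 0.05. Mpeg1 stays below 0 and Clec4f, Vsig4, Cd5l, Timd4, Marco and Csf1r above it in all 24, while Adgre1 and Cd163 each cross 0 once. Values above 0 can lie close to it, as for Timd4 with Cy5 alone (0.00059).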

How the data were processed

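Liver RNA, purified on columns with DNase, was turned into dye-labelled cRNA and hybridised in Cy5 beside the Cy3 reference on every array, per the labels, so no dyes were swapped. The deposited scanner files (from Agilent Feature Extraction: the submitters' processing notes give version 11, the headers 11.5.1.1) hold unlogged median pixel intensity values per spot. Per the file headers they also hold the scanner software's log10 ratio of processed signals, and quality flags of 0 or 1. The authors deposited a table of log2 ratios too, for which the sources used here name no processing. It tracked the recomputed Cy5/Cy3 ratios without centring of genes (lowest correlation 0.999964 over the arrays), and its column medians lay between -0.0028 and 0.0081. It served as an alternative.

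The analysis used R 4.3.3 and limma 3.58.1. Normexp background correction (offset 50), which understates ratios of dim probes, came first, then loess within each array, with controls given weight 0. Uneven spots were left out and spots of one probe averaged. Probes were named through their accession, without version, in a RefSeq table of GRCm38.p6 (26581 of 39429 probes named). Probes were kept if at least 5 arrays had them well above background in Cy5, and the brightest kept probe stood for its gene. Group differences came from lmFit and eBayes over 15974 genes, two-sided, with Benjamini-Hochberg adjustment and a threshold of 0.05. The fit was checked on simulated data with independent noise and with added changes larger than those of the markers. That check does not measure error rates for the markers. The markers and lists were chosen with earlier results of these data known. Genes named beside the markers are those with the 2 largest called rises and falls of a list, or else its smallest p; lists of other cell types are given mainly by counts. Alternatives were other normalizations, filters, probe rules, slide or replicate number as a block, and each array left out.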

Additional observations from a re-analysis of the deposited data

Results flagged for a closer look

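Each of the 9 markers was checked for an array far from the rest of its group, in 18 checks of which chance flags about 1 in 20, and 3 arrays stood apart. Vsig4 on anti-GCGR replicate 5 was at 5.53, with the other antibody arrays close together above it, and the gap made up 0.632 of the range of the group. Cd5l on anti-GCGR replicate 2 was at 6.71 (0.649 of the range), above the other antibody arrays. Timd4 on PBS replicate 6 was at 1.85 (0.780 of the range), above the other PBS arrays.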

How the results depend on the processing

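The log2 fold changes of Clec4f, Vsig4, Cd5l, Timd4, Marco and Csf1r (above 0) and Mpeg1 (below 0) kept their direction under all 24 alternatives. Some of these values could not be told from 0. Timd4 was at 0.00059 (SE 0.079) with Cy5 alone and Cd5l at 0.012 (SE 0.0785) with the scanner software's ratio. Csf1r was at 0.021 (SE 0.091) with median centring. Adgre1 was at -0.0020 with median centring, and Cd163 ranged from -0.0094 (without PBS replicate 5) to 0.056 with 1 array left out. The cause was not tested.

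The count of markers called higher, 1 as reported, was 0 with median centring, 0 with the scanner software's ratio, 0 with Cy5 alone and 2 with slide as a fixed block, where Vsig4 joined Clec4f. Markers called lower, 0 as reported, numbered 1 (Mpeg1) with median centring. With 1 array left out these counts ranged from 0 to 2 and from 0 to 1, and without PBS replicate 4 the marker called was Vsig4 and not Clec4f. Over all genes, 1431 were higher and 904 lower as reported. They numbered 580 and 2144 with median centring, and with 1 array left out 782 to 2293 and 458 to 1574, highest without anti-GCGR replicate 5. The share of rises among calls was 61.3% as reported, 21.3% with median centring, 45.2% with the scanner software's ratio, 51.3% with Cy5 alone and 50.4% with quantile scaling between arrays.

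With the replicate number as a block, which leaves anti-GCGR replicate 2 without weight in the difference, 0 markers were higher, and 710 genes rose and 335 fell. Same-numbered arrays correlated at -0.126 to 0.14 in their deviations from the group means, so the numbers were not taken as pairs. The dim signals of Cd163 and Timd4 limit what these arrays can show for them.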
